A study of Mus musculus with 20 samples.

Results

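Cultured mouse cerebellar granule neurons that received an shRNA against Kdm6b together with an active human KDM6B enzymatic domain were compared with control cultures, gene by gene, in RNA sequencing libraries paired by the number in their names. The comparison set 5 active rescue libraries against 5 control libraries, 10 of the 20 in the series. The filter on low counts and the paired fit used all 20 libraries. Of 24411 genes, 15284 passed that filter and were tested. In the active rescue the shRNA and the human domain were given together on day 1 in vitro. The control group is labelled as control, and the labels do not state what its cultures were infected with or the strain and age of the animals. The other groups received that shRNA with a catalytically inactive version of the domain (dead rescue) or the shRNA by itself (shKdm6b), with 5 libraries each. By the series' description, neurons were treated on day 2 with AraC, an inhibitor of DNA synthesis that kills dividing cells, and harvested on day 7. Whether the 5 libraries of a group were separate cultures or animals is not stated, and the p-values below describe the spread among these libraries, which may be technical. The share of cells that took up each virus is not stated, and RNA was taken from whole cultures.

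Kdm6b encodes a histone demethylase that removes methyl groups from lysine 27 of histone H3 (H3K27), a mark that Polycomb complexes place on silent developmental genes. It belongs to the JmjC family of enzymes, and its relative Kdm6a acts on the same mark. Granule neurons are the small excitatory neurons of the cerebellar granule layer. After their last division they extend parallel fibres, switch from early neuronal genes to genes of mature synapses and channels, and come to express receptors found in the adult granule layer. The active rescue differed from control in both the shRNA and the domain, so this comparison cannot tell their parts apart.

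The 10 libraries held 16145488 to 20870586 estimated counts each, with 16878 to 17351 genes detected. Rn45s, the precursor of ribosomal RNA, took 3.22 to 5.11% of counts in libraries numbered 1 to 3 of both groups and 0.206 to 0.379% in numbers 4 and 5. The nuclear noncoding RNA Malat1 likewise stood at 4422 to 6888 CPM (counts scaled to TMM-adjusted library totals) in numbers 1 to 3 and at 253 to 997 CPM in numbers 4 and 5. Control 4 stood apart from the other libraries on the leading principal component (37.3% of variance). Granule neuron markers were present in every library, among them Neurod1 (129 to 637 CPM in active rescue, 176 to 746 CPM in control) and Zic1 (623 to 1105 CPM in active rescue, 280 to 1207 CPM in control). Transcripts of other cells were present as well: Gfap of astrocytes stood at 718 to 4723 CPM in active rescue and 502 to 5480 CPM in control, and Col1a1 of fibroblasts at 1079 to 7465 CPM in active rescue and 1139 to 7778 CPM in control. The endothelial gene Cldn5 was at or near 0, with 0 to 1.5 CPM in active rescue and 0 to 0.876 CPM in control. In RNA from whole cultures, fewer cells of a type and less RNA per cell cannot be told apart.

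Reads assigned to Kdm6b were first compared, since they check the labels. Kdm6b stood at 290, 312, 266, 73.2 and 119 CPM in active rescue libraries 1 to 5, against 141, 171, 139, 81.2 and 187 CPM in control libraries 1 to 5. Numbers 1 to 3 were higher in the active rescue and numbers 4 and 5 lower, and the groups overlapped. The mean log2 difference was 0.41 ± 0.77 (SD, n = 5 pairs), which did not exceed the spread between libraries (exact two-sided permutation p = 0.405, where 0.00794 is the smallest this design allows; exact sign-flip p = 0.25 over the pairs, with a smallest possible 0.0625). The paired edgeR estimate was 0.38 ± 0.21 (log2, SE, adjusted p = 0.476). With libraries numbered 1 to 3 alone the value was 0.94 and Kdm6b passed (edgeR paired adjusted p = 0.000392), and with numbers 4 and 5 alone it was -0.43 (adjusted p = 0.549). Kdm6b stood at 272, 250, 192, 54.9 and 109 CPM in dead rescue libraries and at 99.4, 112, 89.4, 37.9 and 76.4 CPM in shKdm6b libraries, below control in each number in shKdm6b (log2 fold change -0.88, edgeR paired adjusted p = 0.0231). Whether reads from the human domain are included under mouse Kdm6b is not stated, and the endogenous transcript is not measured apart from them. Kdm6b lies on chromosome 11 at chr11:69398508-69413675 (minus strand; GENCODE on GRCm38, which is mm10) and overlaps the antisense gene Kdm6bos. Kdm6a averaged 46.3 ± 13.7 CPM in active rescue and 48.1 ± 22.6 CPM in control (SD, n = 5 each), and the paired edgeR estimate was 0.11 ± 0.23 on the log2 scale (SE, adjusted p = 0.924).

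**Figure D1:**
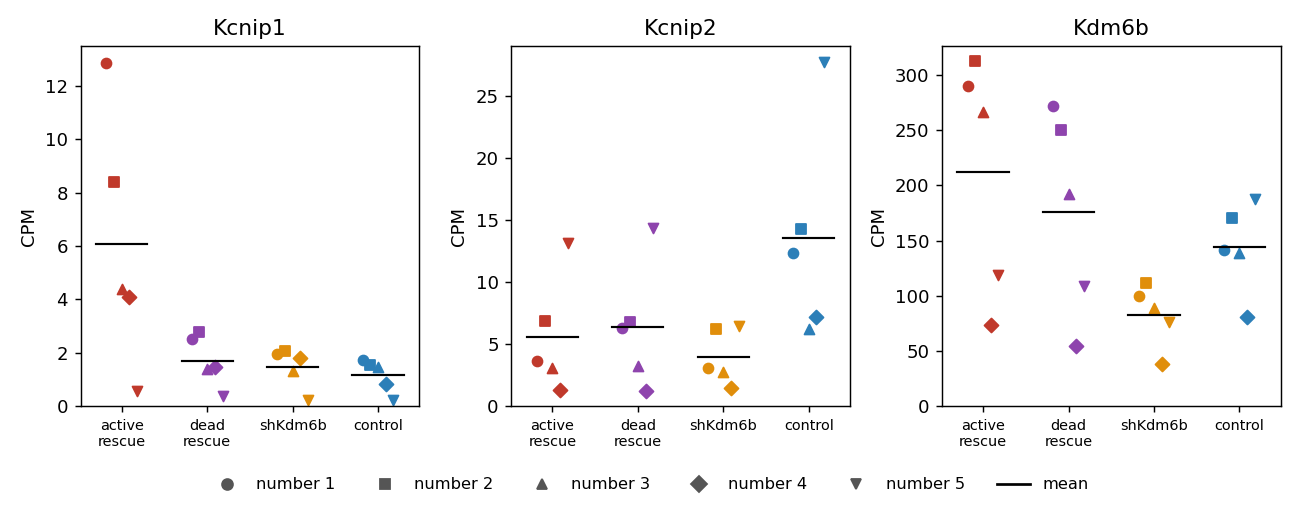
Levels in CPM (vertical axes) of Kcnip1, Kcnip2 and Kdm6b in each library of the active rescue, dead rescue, shKdm6b and control groups, with marker shapes for the library number and a bar at the mean. Kcnip1 averaged 6.07 CPM in active rescue against 1.16 CPM in control, Kcnip2 5.598 CPM against 13.5 CPM, and Kdm6b was above control in numbers 1 to 3 and below it in numbers 4 and 5.

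Across the transcriptome, 299 of 15284 genes (1.96%) differed between active rescue and control at an adjusted p of 0.05. The test was edgeR's paired quasi-likelihood test, fitted on all 20 libraries. Of these, 166 were higher in the active rescue (1.09% of genes tested) and 133 lower (0.87%). A change of at least 2-fold was reached by 71 of the called genes, 51 of them higher and 20 lower, and 284 of the 299 had the same direction in all 5 pairs. Over all genes tested, 1044 (6.83%) were higher and 690 (4.51%) lower in all 5 pairs. The median log2 fold change over all genes tested was 0.02. With these 10 libraries fitted without the other 10, the same test called 2 genes, Hoxd3 and Rit2. Without pairing, edgeR called 0 genes on all 20 libraries, with 387 of 15284 under an unadjusted p of 0.05, and DESeq2 called 29 there. Unpaired edgeR on these 10 libraries called 0, with 291 of 14707 under an unadjusted p of 0.05. Where nothing differs, about 1 in 20 genes would be under that level. The paired fit without the libraries numbered 4 called 700 genes (4.6%; 2.04% higher and 2.56% lower), and that of numbers 1 to 3 alone 454 (2.97%; 1.44% higher and 1.53% lower). Of the 299 genes, 282 were also called in the first of these fits and 199 in the second. All 299 genes kept their sign in the unpaired fit, which uses the same libraries that chose them and so carries no test. Of 30 genes named for the size of their change, 15 in each direction, 22 kept their calls when any 1 of the 10 libraries was left out. In 7 of the 15 named rises and 1 of the 15 named falls every active rescue library lay beyond every control library. Over all genes tested, 75 (0.491%) lay wholly above and 27 (0.177%) wholly below control in this way.

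**Figure D2:**
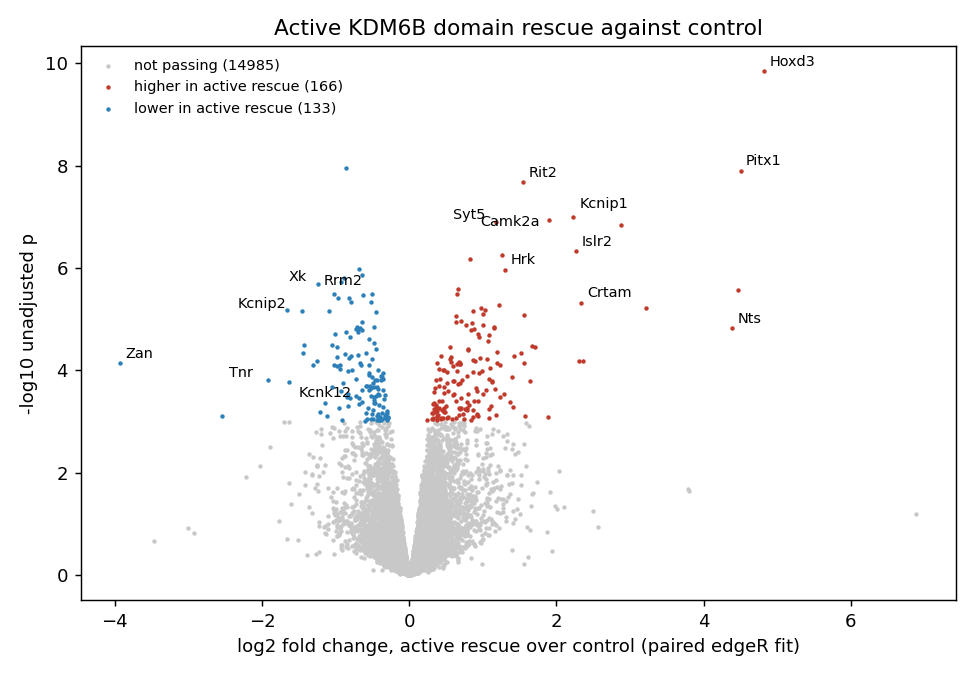
Each point is 1 of 15284 genes, with its log2 fold change of active rescue over control (horizontal axis) and -log10 of the unadjusted p of the paired edgeR fit (vertical axis). The 166 genes called higher (red) include Hoxd3 and Pitx1 beyond a log2 fold change of 4, and the 133 called lower (blue) include Zan, Tnr, Kcnk12 and Kcnip2.

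Homeobox genes that control developing tissues and are textbook targets of Polycomb silencing showed the largest rises among named genes. Hoxd3, a Hox gene of body-axis patterning, stood at 3.02, 2.87, 3.05, 28.8 and 15.1 CPM in active rescue libraries 1 to 5, against 0.0524, 0.0999, 0.0590, 1.12 and 0.584 CPM in control libraries 1 to 5. Both groups were highest in numbers 4 and 5, and every active rescue library was above every control library. Its log2 fold change was 4.82 ± 0.34 (SE, edgeR paired adjusted p = 2.19e-06), resting on 1029 rounded reads in active rescue and 33 in control. Hoxd3 (chr2:74711927-74748442, plus strand) overlaps Hoxd4, Mir10b and Gm28230 on its own strand and Haglr and Hoxd3os1 on the other, so its count is uncertain. Pitx1, a homeobox gene of hindlimb and pituitary development (chr13:55825051-55836192, minus strand), stood at 2.29, 1.83, 1.87, 16.8 and 9.73 CPM in active rescue, against 0, 0.0999, 0.177, 1.42 and 0.117 CPM in control. Again the groups did not overlap, and number 4 was highest in each. The fitted log2 fold change was 4.50 ± 0.43 (edgeR paired adjusted p = 6.42e-05), from 631 reads in active rescue and 31 in control, and the gene overlaps Gm28760 on its own strand and Gm47071 on the other. Pax2, a paired-box gene expressed in precursors of cerebellar interneurons, rose by 1.04 ± 0.22 (adjusted p = 0.0215), at 21.1 ± 13.2 CPM in active rescue and 10.2 ± 6.03 CPM in control. The Pax2 call was lost without active rescue 1 or 3 or control 1, 3 or 4 (adjusted p up to 0.0829).

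Of 73 developmental regulators listed as known Polycomb targets, 41 passed the filter on low counts. Among them the 3 genes above rose, 0 fell and 38 did not pass, where 1.09% of all genes tested rose and 0.87% fell. No histone mark was measured, and the 41 summed to 595 to 917 CPM in control, so not all were silent there. The median log2 fold change of the 41 was 0.20, or 0.09 over the 39 measured without the libraries numbered 4, against 0.02 over all genes. Among the members that did not pass, values ran from -0.59 (Foxf1) to 1.27 (Hoxd8). The mean difference of the list was positive in 5 of 5 pairs, from 0.19 to 0.56. Members near 0 in control, such as Hoxd3 and Pitx1, passed the filter through groups where they were higher and could hardly fall. The balance of rises and falls in this list and its mean are therefore partly set by the filter and carry no test of direction. Of the 32 members removed for low counts, Hoxd4 is one that overlaps Hoxd3. The enzymes and subunits that write or remove H3K27 methylation held 0 calls among 14 measured members (range -0.26 to 0.38, median -0.02; smallest adjusted p 0.148), with Ezh2, the Polycomb methyltransferase, at -0.12 ± 0.13 (SE). COMPASS complex genes, which methylate lysine 4 of histone H3, held 0 calls of 16 in edgeR, and the other JmjC demethylases 0 of 19 (smallest adjusted p 0.546 and 0.505).

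Among neuropeptide genes and their receptors, called members were mostly higher. Nts, which encodes the neuropeptide neurotensin, stood at 2.05, 1.34, 0.802, 5.18 and 0.173 CPM in active rescue, against 0.0524, 0, 0, 0.413 and 0.117 CPM in control. Each active rescue library was above its own control, but these are low counts, 193 reads against 10, and the groups overlapped. With the 10 libraries of this comparison alone Nts did not pass the filter on low counts and was not tested. The log2 fold change was 4.38 ± 0.73 (SE, edgeR paired adjusted p = 0.00438). Galr1, a galanin receptor, stood at 12, 8.62, 7.38, 7.86 and 6.39 CPM in active rescue, against 2.67, 4.89, 4.66, 0.118 and 0.817 CPM in control, groups that did not overlap. It rose by 1.88 ± 0.46 (adjusted p = 0.0465), a call lost without any 1 of the active rescue libraries or of controls 1, 4 and 5 (adjusted p up to 0.15). Crhr1, the receptor of corticotropin-releasing hormone, rose by 1.09 ± 0.21, at 20.98 ± 3.43 CPM in active rescue and 10.3 ± 3.57 CPM in control (SD, n = 5 each). Cck, the peptide cholecystokinin, rose by 1.00 ± 0.22, at 4.75 ± 4.85 CPM in active rescue and 2.11 ± 1.97 CPM in control. The Cck call was lost without active rescue 2 or 3 or control 2, 3 or 5 (adjusted p up to 0.11). Ramp3, a protein that sets the ligand preference of calcitonin-family receptors, fell, at 7.998, 14.4, 6.85, 2.59 and 14.5 CPM in active rescue and 26.05, 24.3, 13.5, 22.4 and 25.2 CPM in control. Its log2 fold change was -1.43 ± 0.25 (adjusted p = 0.00713).

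In the neuropeptide list 23 of 35 genes passed the filter, of which 5 rose, 1 fell and 17 did not pass, where 1.09% of all genes tested rose and 0.87% fell. The fifth rise was that of Adcyap1r1, the receptor of the peptide PACAP (0.52 ± 0.13). The median log2 fold change was 0.28, and the mean of the list was higher in 5 of 5 pairs, by 0.09 to 0.66. Nts, near 0 in control, passed the filter through groups where it was higher and could hardly fall. The balance of calls and the list mean are therefore partly set by the filter and carry no test of direction. The members that did not pass ran from -1.27 (Vipr1, a receptor of vasoactive intestinal peptide) to 1.204 (Adcyap1, which encodes PACAP itself).

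In the list of axon growth, guidance and adhesion genes, the 6 members called were all higher in the active rescue, and the rest were spread around 0. Islr2, a membrane protein of growing axons, had the largest value, at 107, 56.3, 36.4, 69.0 and 59.2 CPM in active rescue libraries 1 to 5 and 14.9, 8.69, 3.89, 34.7 and 19.9 CPM in control libraries 1 to 5. The groups did not overlap, and number 4 had the smallest gap within a pair on the log scale. The log2 fold change was 2.27 ± 0.28 (SE, edgeR paired adjusted p = 0.000792). Ntng2, the axonal adhesion protein netrin-G2, stood at 18.2, 11.3, 17.0, 28.7 and 10.2 CPM in active rescue, against 3.04, 5.04, 7.67, 4.67 and 6.25 CPM in control. It rose by 1.56 ± 0.30 (adjusted p = 0.0107), with groups that did not overlap. Unc5d, a netrin receptor, rose by 1.397 ± 0.28 (21.2 ± 7.23 CPM in active rescue, 8.63 ± 5.23 CPM in control), and lost its call without control 1 or 5 (adjusted p up to 0.0599). Efnb3, an ephrin of axon repulsion, rose by 0.98 ± 0.15 and the cadherin Cdh10 by 0.87 ± 0.16. Together with Lrrtm1, a synaptic organiser (1.09 ± 0.22), 6 of 63 listed genes rose, 0 fell and 57 did not pass in edgeR (smallest adjusted p among these 0.0614). Over all genes tested 1.09% rose and 0.87% fell. The median log2 fold change of the list was 0.04. Without the libraries numbered 4, where 4.6% of all genes were called, 7 listed genes rose and 6 fell, with a median of -0.05. Ntng1, the paralogue of Ntng2, had the lowest value, -1.20 ± 0.31 (adjusted p = 0.0617). Pcdh17, a protocadherin outside the list, rose by 1.41 ± 0.33 (21.2 ± 12.2 CPM in active rescue, 8.90 ± 6.26 CPM in control; adjusted p = 0.0353). The Pcdh17 call was lost without active rescue 1 or 2 or control 1, 2, 4 or 5 (adjusted p up to 0.129).

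**Figure D3:**
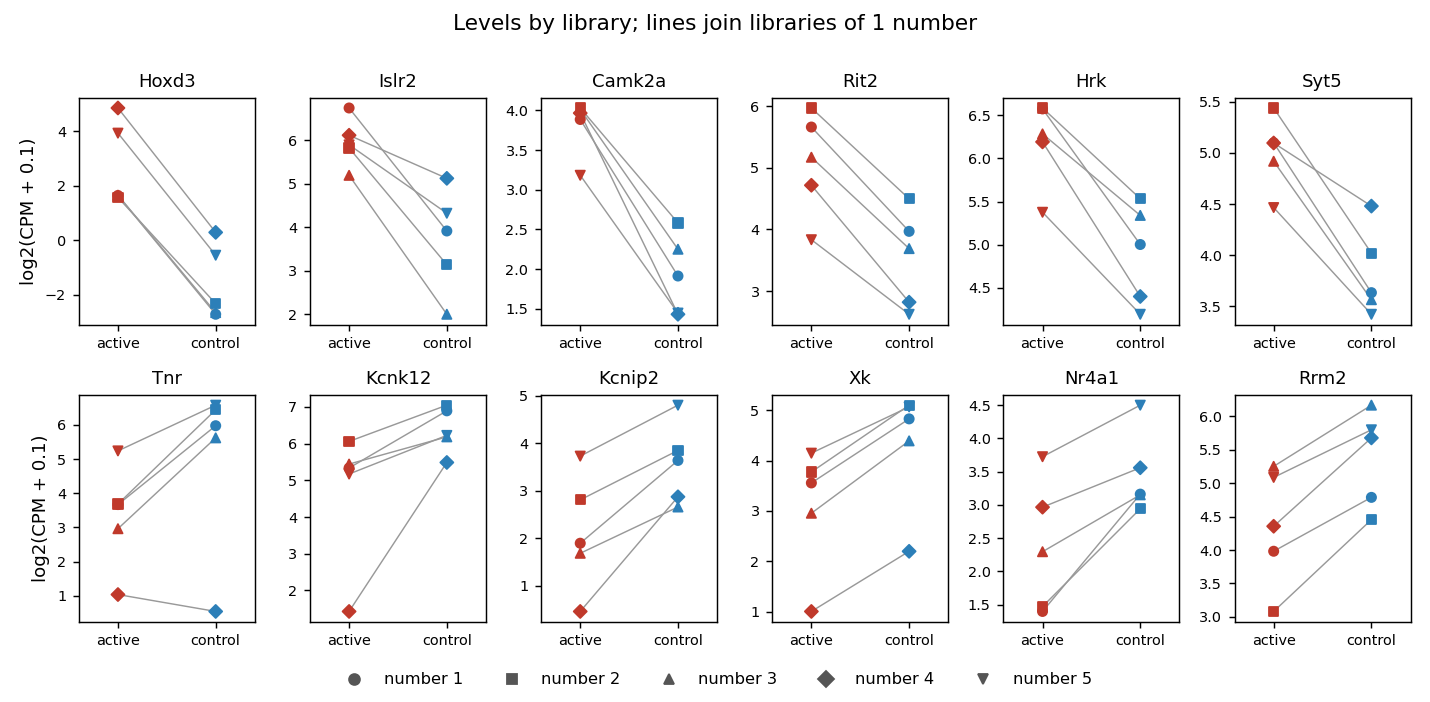
Levels of 12 named genes as log2(CPM + 0.1) (vertical axes) in active rescue (left, red) and control (right, blue), with lines joining libraries of the same number. All 5 lines run downward to control for Hoxd3, Islr2, Camk2a, Rit2, Hrk and Syt5, and upward for Kcnk12, Kcnip2, Xk, Nr4a1 and Rrm2, while Tnr is slightly higher in active rescue 4 than in control 4.

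Synaptic genes moved in both directions. Camk2a, which encodes a CaMKII kinase subunit abundant at excitatory synapses, stood at 14.7, 16.2, 16.0, 15.5 and 8.98 CPM in active rescue, against 3.67, 5.89, 4.66, 2.598 and 2.63 CPM in control. The groups did not overlap, and the log2 fold change was 1.90 ± 0.21 (SE, edgeR paired adjusted p = 0.000281). Neto1, an auxiliary subunit of kainate receptors, stood at 4.58, 3.27, 1.23, 14.7 and 5.87 CPM in active rescue, against 0.734, 0.899, 1.18, 1.18 and 0.642 CPM in control. The pair numbered 3 hardly differed, although all active rescue values lay above all control values, and the log2 fold change was 2.30 ± 0.43 (adjusted p = 0.0105), or 1.53 with numbers 1 to 3 alone (adjusted p = 0.117). Homer2, a scaffold linked to metabotropic glutamate receptors, rose by 0.43 ± 0.10, and Dlgap1, a postsynaptic density scaffold gene, fell, with a log2 fold change of -0.64 ± 0.10. The Homer2 call was lost without any 1 library except control 3 (adjusted p up to 0.158). Of 55 postsynaptic glutamatergic genes 3 rose, 1 fell and 51 did not pass, with a median of 0.19. Over all genes tested 1.09% rose and 0.87% fell. Without the libraries numbered 4 the median was 0.05, with 6 members higher and 8 lower. That fit called 2.04% of all genes higher and 2.56% lower.

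On the presynaptic side, Stx1a, the plasma membrane SNARE protein syntaxin 1A, rose by 0.88 ± 0.15 (SE, edgeR paired adjusted p = 0.00438), at 33.4 ± 4.06 CPM in active rescue and 18.4 ± 4.21 CPM in control (SD, n = 5 each), without overlap. The calcium sensor gene Syt7 had a log2 fold change of -0.52 ± 0.11, the vesicle GTPase gene Rab3c -0.68 ± 0.16 and the adhesion gene Nrxn3 -0.45 ± 0.10, and all 3 fell in 5 of 5 pairs. These falls were less stable: the Syt7 call was lost without active rescue 1, 2 or 5 or control 1, 2 or 5 (adjusted p up to 0.0811). That of Rab3c was lost without active rescue 1, 2 or 3 or control 1, 2, 3 or 4 (up to 0.118), and that of Nrxn3 without active rescue 1, 2 or 5 or control 1, 2, 3 or 4 (up to 0.111). In the presynaptic list 1 of 51 genes rose, 3 fell and 47 did not pass, with a median of -0.08. The shares over all genes tested were 1.09% higher and 0.87% lower. Without the libraries numbered 4, 2 members rose and 10 fell, where 2.04% of all genes rose and 2.56% fell. Syt5, a synaptotagmin outside the list, rose by 1.18 ± 0.13 (32.7 ± 7.68 CPM in active rescue, 14.6 ± 4.73 CPM in control; adjusted p = 0.000281). Caly, an endosomal protein that binds dopamine receptors, rose by 1.16 ± 0.19 (30.2 ± 6.03 CPM in active rescue, 14.4 ± 6.11 CPM in control). Rit2, a neuronal Ras-like GTPase, stood at 50.4, 62.5, 35.9, 26.2 and 14.2 CPM in active rescue, against 15.6, 22.5, 12.8, 6.97 and 6.07 CPM in control. Its log2 fold change was 1.55 ± 0.16 (adjusted p = 8.09e-05), and the pairs moved together although the groups overlapped. Among GABA and glycine receptor genes, 18 of 21 passed the filter and 1 rose, Glra2, a glycine receptor subunit (0.83 ± 0.14), 0 fell and 17 did not pass. Gabrd, which encodes the delta subunit of GABA-A receptors outside synapses, had a value of -1.25 ± 0.41 that did not pass (adjusted p = 0.153), or -0.55 without the libraries numbered 4 (adjusted p = 0.0153) and -0.46 with numbers 1 to 3 alone (adjusted p = 0.0456), with 41.4, 49.2, 44.9, 3.32 and 52.7 CPM in active rescue and 68.0, 71.7, 48.3, 59.4 and 87.9 CPM in control.

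A pair of related potassium channel subunits changed in opposite directions. Kcnip1 and Kcnip2 encode KChIP proteins, calcium-binding subunits that travel with Kv4 channels and shape their A-type current. Kcnip1 stood at 12.9, 8.42, 4.39, 4.10 and 0.576 CPM in active rescue libraries 1 to 5, against 1.73, 1.55, 1.48, 0.827 and 0.234 CPM in control libraries 1 to 5. Number 5 was lowest in both groups, each active rescue library exceeded its own control, and the log2 fold change was 2.22 ± 0.25 (SE, edgeR paired adjusted p = 0.000281) on 610 reads in active rescue and 107 in control. Kcnip2 stood at 3.61, 6.88, 3.10, 1.27 and 13.1 CPM in active rescue, against 12.3, 14.3, 6.19, 7.21 and 27.7 CPM in control, lower in every pair, with a log2 fold change of -1.45 ± 0.23 (adjusted p = 0.00297). Kcnk12, a two-pore background potassium channel gene, fell as well, at 40.3, 66.6, 43.4, 2.59 and 35.9 CPM in active rescue and 119, 132, 72.6, 44.7 and 74.6 CPM in control. Active rescue 4 was far below the rest of its group. The Kcnk12 log2 fold change was -1.63 ± 0.33 (adjusted p = 0.0171), -1.09 without the libraries numbered 4, and the call was lost without active rescue 1 (adjusted p = 0.0677). Kcnc4, a Kv3 channel gene, rose by 1.22 ± 0.18 without overlap (31.0 ± 8.59 CPM in active rescue, 13.0 ± 2.39 CPM in control), and the calcium channel gene Cacna1i by 0.81 ± 0.19. Kcnj3, an inward rectifier gene, fell, with a log2 fold change of -0.73 ± 0.15 that lost its call without active rescue 1 (adjusted p = 0.0724). Kcnab1, a Kv1 accessory subunit outside the list, had a log2 fold change of -1.01 ± 0.17 (23.3 ± 12.6 CPM in active rescue, 43.5 ± 18.1 CPM in control). Over the 57 listed channel genes 3 rose, 3 fell and 51 did not pass, with a median of -0.08. Among all genes tested 1.09% rose and 0.87% fell. Without the libraries numbered 4 the counts were 4 higher and 8 lower, where 2.04% of all genes rose and 2.56% fell.

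The 250 bases upstream of the RefSeq start (GRCm38.p6) are shown for 4 genes: the KChIP pair that moved apart, Islr2 as the largest named rise in the guidance group, and Tnr, the matrix gene described next. Capitals mark the dinucleotide CG, which reads the same on both strands. Each sequence is written 5′ to 3′ on the gene's own strand. Kcnip1 is at chr11:33993194-33993443 (minus strand), Kcnip2 at chr19:45816064-45816313 (minus), Islr2 at chr9:58204320-58204569 (minus) and Tnr at chr1:159523519-159523768 (plus).
Kcnip1: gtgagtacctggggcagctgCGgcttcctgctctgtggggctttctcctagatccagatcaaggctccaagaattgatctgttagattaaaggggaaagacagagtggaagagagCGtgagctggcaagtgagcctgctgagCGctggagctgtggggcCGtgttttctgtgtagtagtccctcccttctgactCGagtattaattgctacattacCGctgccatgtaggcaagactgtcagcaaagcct
Kcnip2: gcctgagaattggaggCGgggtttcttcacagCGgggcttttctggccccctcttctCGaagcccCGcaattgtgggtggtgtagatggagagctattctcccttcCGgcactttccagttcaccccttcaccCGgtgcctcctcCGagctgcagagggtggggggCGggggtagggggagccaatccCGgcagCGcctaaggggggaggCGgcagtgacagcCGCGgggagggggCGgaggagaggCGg
Islr2: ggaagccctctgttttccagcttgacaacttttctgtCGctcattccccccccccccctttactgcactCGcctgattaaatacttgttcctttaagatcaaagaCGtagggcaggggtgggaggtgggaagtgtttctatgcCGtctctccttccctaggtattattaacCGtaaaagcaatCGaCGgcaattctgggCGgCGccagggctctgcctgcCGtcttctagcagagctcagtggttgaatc
Tnr: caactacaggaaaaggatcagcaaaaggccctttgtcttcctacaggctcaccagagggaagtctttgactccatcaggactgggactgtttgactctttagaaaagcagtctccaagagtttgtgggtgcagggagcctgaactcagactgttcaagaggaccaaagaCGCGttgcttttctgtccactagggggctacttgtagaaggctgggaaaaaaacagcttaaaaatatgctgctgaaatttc
The Kcnip1 window held 6 CG and the Kcnip2 window 15, while Islr2 held 10 and Tnr 2. Where a gene had several RefSeq entries the first was used. Kcnip1 and Islr2 have 3 each, and the windows of their other entries were not counted. At least 1 CG was present in 98.6% of the 11484 tested genes with a RefSeq window, and their median was 15. Windows were matched for 124 of the 166 higher and 98 of the 133 lower genes, fewer than 80%, so a comparison of the called genes by CG content is void.

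Among listed genes of late granule neuron maturation, called members were mostly lower. The calls did not lean that way without the members that earlier results of these data had named, as given below. Tnr, which encodes tenascin-R, a protein of the extracellular matrix around neurons, stood at 12.6, 12.8, 7.70, 1.95 and 37.7 CPM in active rescue libraries 1 to 5 and at 62.9, 86.9, 49.1, 1.36 and 95.5 CPM in control libraries 1 to 5. It was far lower in numbers 1, 2, 3 and 5, and near its minimum in both libraries numbered 4. The log2 fold change was -1.92 ± 0.39 (SE, edgeR paired adjusted p = 0.0163), a call lost without active rescue 1, 2 or 3 or control 2 or 3 (adjusted p up to 0.0783). Prmt8, a neuronal arginine methyltransferase, had a log2 fold change of -0.99 ± 0.19, with 13.1 ± 5.80 CPM in active rescue and 25.02 ± 7.11 CPM in control (SD, n = 5 each). Mfsd4, a transporter-like gene, stood at 6.39, 7.13, 7.17, 3.91 and 30.7 CPM in active rescue, against 22.6, 17.6, 24.0, 3.96 and 71.2 CPM in control. The Mfsd4 log2 fold change was -1.21 ± 0.29 (adjusted p = 0.0413), a call lost without any 1 library except active rescue 4 and control 4 (adjusted p up to 0.153). Wnt7a, a Wnt ligand made by granule neurons, changed by -0.64 ± 0.14.

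With Kcnip2, Kcnk12 and Nrxn3 above, 7 of the 38 maturation genes fell, where 1.09% of all genes tested rose and 0.87% fell. Moving the other way, Crtam, an immunoglobulin-family adhesion protein, rose by 2.34 ± 0.35, at 5.71, 4.06, 1.77, 4.40 and 1.04 CPM in active rescue and 0.891, 1.30, 0.413, 0.768 and 0 CPM in control, and Fstl5 rose by 0.91 ± 0.19. The other 29 did not pass, among them Cbln3, a secreted cerebellin of granule neurons (-0.44 ± 0.13, adjusted p = 0.0911), Etv1 (-0.63 ± 0.18, adjusted p = 0.0917) and Gabra6, the GABA-A subunit typical of granule neurons (-0.12 ± 0.17). The median log2 fold change of the list was -0.40, with 30 of 38 values negative, and the mean of the list was lower in 5 of 5 pairs, with differences of -0.42 to -0.29. Without the libraries numbered 4, a fit in which 2.56% of all genes were called lower and 2.04% higher, 17 members fell and 2 rose, with a median of -0.34. This list holds 12 genes that earlier results of these data had already named, so it gives no independent evidence of direction. Without those 12, 2 of 26 members rose, 1 fell, and the median was -0.18. Markers of granule neuron identity held 1 call among 16, the transcription factor gene Nfia (-0.38 ± 0.10), which lost it whichever of the 10 libraries was left out (adjusted p up to 0.128), with a median of 0.10 over the list, or -0.04 without the libraries numbered 4. Slc17a7, the vesicular glutamate transporter, had a value of -0.94 that did not pass.

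Among listed early neuronal and progenitor genes, the members called were all higher. Gap43, a protein of growing axons, rose by 0.70 ± 0.11 (SE; 166 ± 47.3 CPM in active rescue, 102 ± 24.0 CPM in control, SD, n = 5 each). Barhl1, a homeobox gene active in precursors of granule neurons, stood at 42.3, 54.7, 47.9, 62.7 and 40.0 CPM in active rescue, against 24.9, 35.1, 30.6, 27.3 and 26.1 CPM in control. It rose by 0.77 ± 0.13 (edgeR paired adjusted p = 0.00438), and the groups did not overlap. The neuronal tubulin gene Tubb3 rose by 0.55 ± 0.10, Nnat by 0.51 ± 0.11 and the homeobox gene Meis1 by 0.31 ± 0.08. The Nnat call was lost without any 1 of libraries 1 to 3 of either group (adjusted p up to 0.073). Of 36 listed genes 34 passed the filter, with 5 higher, 0 lower and 29 not passing. Values of the last ranged from -0.50 (Nhlh1) to 0.91 (Mycn). Atoh1 and Gli1 were removed for low counts and were not tested. Over all genes tested 1.09% were higher and 0.87% lower. The list median was 0.22, or 0.09 without active rescue 4 and 0.20 without the 2 members named in earlier results. Without the libraries numbered 4 the median was 0.06, with 7 members higher and 2 lower. That fit called 2.04% of all genes higher and 2.56% lower. The list mean was higher in 5 of 5 pairs, by 0.11 to 0.40.

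**Figure D4:**
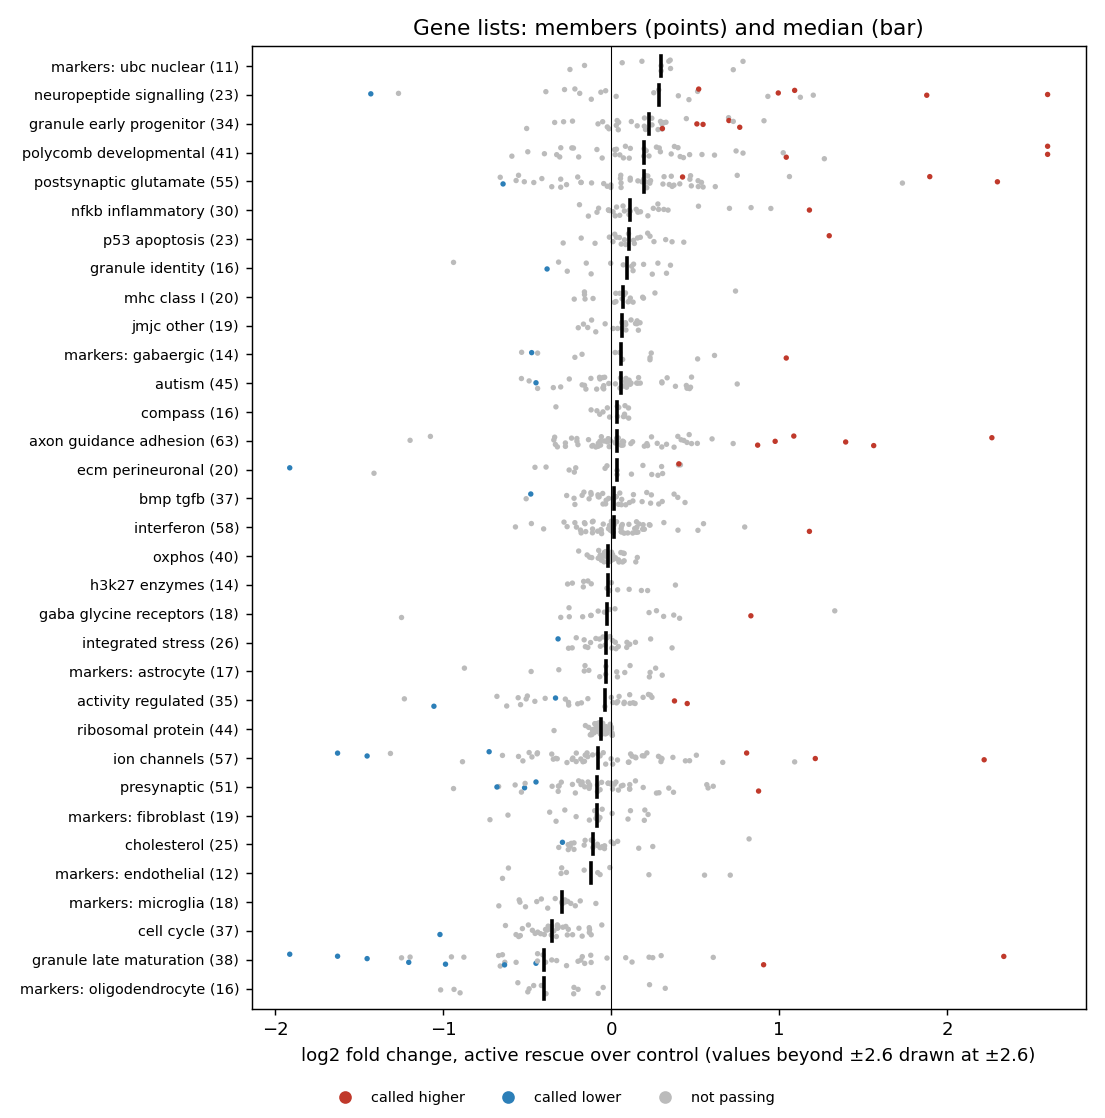
Log2 fold change of active rescue over control (horizontal axis) for the measured members of 33 gene lists (points; red called higher, blue called lower, grey not passing), with a black bar at each median and the number of measured members in brackets. The medians run from -0.40 for oligodendrocyte markers and late granule maturation to 0.30 for unipolar brush and nuclear neuron markers, and values beyond 2.6 in either direction are drawn at 2.6.

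Cell cycle genes all had negative values but nearly all were short of the threshold. Rrm2, a subunit of ribonucleotide reductase, was the member called, at 15.7, 8.37, 38.0, 20.4 and 33.9 CPM in active rescue and 27.5, 21.8, 71.7, 51.0 and 55.5 CPM in control. Its log2 fold change was -1.02 ± 0.15 (SE, edgeR paired adjusted p = 0.00227). The other 36 of 37 members ranged from -0.63 (Bub1b) to -0.06 (Nusap1). Over all genes tested 1.09% rose and 0.87% fell, and 53.8% had a positive value. The median was -0.35, and the list mean was lower in 5 of 5 pairs, with differences of -0.68 to -0.01. With libraries numbered 1 to 3 alone, a fit in which 1.53% of all genes were called lower, 11 fell and the median was -0.55. Some marker lists of other cells had negative medians as well. Oligodendrocyte lineage markers had -0.40 (14 of 16 negative, 0 called, summed level 117 to 1256 CPM in active rescue and 133 to 1166 CPM in control), with Mog at 0.248 to 5.93 CPM in active rescue and 0.499 to 6.66 CPM in control. Microglia markers had -0.29 (18 of 18 negative, 0 called, 633 to 2438 CPM in active rescue and 753 to 3529 CPM in control). The microglia median was 0.09 without the libraries numbered 4. The part of these cells in the cell cycle values was not tested.

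Interferon and antiviral genes did not separate active rescue from control. Of 58 members 1 rose, 0 fell and 57 did not pass, where 1.09% of all genes tested rose and 0.87% fell. The gene called was Cxcl10, an interferon-inducible chemokine, at 25.7, 16.6, 38.2, 123.1 and 51.8 CPM in active rescue and 15.5, 11.6, 29.8, 28.9 and 12.1 CPM in control. Its rise of 1.18 ± 0.29 (SE, edgeR paired adjusted p = 0.044) was lost without any 1 library except active rescue 3 and control 2 (adjusted p up to 0.127), and with numbers 1 to 3 alone the value was 0.54 (adjusted p = 0.201). The list's median log2 fold change was 0.02, -0.0018 with RLE size factors and -0.11 without the libraries numbered 4, and pair means ran from -0.36 to 0.49 with 2 of 5 above 0. In the same fit, the list had a median of 0.33 in shKdm6b over control and 0.35 in dead rescue over control, with 5 of 5 pair means above 0 in each. The median was -0.30 in active rescue over shKdm6b (0 of 5 pair means above 0) and -0.31 in active rescue over dead rescue (1 of 5 above 0). These comparisons share libraries, so their values are not independent of each other. The 20 genes of MHC class I presentation held 0 calls in edgeR (smallest adjusted p 0.223, median 0.07), and the inflammatory NF-kB list held Cxcl10 as its call among 30.

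Activity-regulated genes had 2 rises and 2 falls among 35 measured members, with 31 not passing. Among all genes tested 1.09% rose and 0.87% fell. Nr4a1, an immediate-early transcription factor gene, stood at 2.54, 2.67, 4.81, 7.72 and 13.1 CPM in active rescue, against 8.86, 7.59, 8.79, 11.7 and 22.5 CPM in control. It was lower in every pair, by -1.06 ± 0.19 on the log2 scale (SE, edgeR paired adjusted p = 0.00716). Egr1, a zinc-finger factor of the same class, had -0.33 ± 0.08, a call lost without any 1 library except active rescue 4 and control 5 (adjusted p up to 0.144). Jun rose by 0.38 ± 0.09 but lost its call whichever library was left out (adjusted p up to 0.135), and the granin gene Scg2 rose by 0.45 ± 0.09, with an adjusted p of 0.0501 without active rescue 2. The median of the list was -0.04, or -0.19 with 2 higher and 6 lower without the libraries numbered 4. That fit called 2.04% of all genes higher and 2.56% lower.

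Further named changes lay outside these groups. Hrk, a pro-apoptotic BH3-domain protein, rose by 1.30 ± 0.17 (SE, edgeR paired adjusted p = 0.00126), at 95.2, 95.9, 77.9, 73.0 and 41.5 CPM in active rescue and 32.0, 46.2, 40.4, 21.02 and 18.2 CPM in control. It was the single call among 23 p53 and apoptosis genes, of which 0 fell. Over all genes tested 1.09% rose and 0.87% fell. Miat, a long noncoding RNA, rose by 1.15 ± 0.19 (43.5 ± 24.7 CPM in active rescue, 18.6 ± 5.95 CPM in control; SD, n = 5 each). Fbxl22, an F-box gene of muscle, had the largest fall of the 30 genes named for size, at 2.49, 4.01, 3.21, 0.782 and 2.30 CPM in active rescue and 9.01, 9.84, 6.43, 5.97 and 6.89 CPM in control. The groups did not overlap, and the value was -1.67 ± 0.26 (adjusted p = 0.00297), although the gene overlaps Herc1 on the other strand. Xk, a membrane protein of red cells also found in brain, had -1.25 ± 0.18 (10.5 ± 5.99 CPM in active rescue, 24.3 ± 12.3 CPM in control), and Crabp2, a retinoic acid carrier, -1.26 ± 0.24 (6.61 ± 4.38 CPM in active rescue, 15.2 ± 7.99 CPM in control). The remaining named falls were Hkdc1, a hexokinase relative (-1.09 ± 0.17), Mrgprf, an orphan receptor (-0.99 ± 0.18), Nt5e, the ectonucleotidase that makes adenosine (-1.05 ± 0.22), and Ankrd34a (-1.03 ± 0.20). The Nt5e call was lost without active rescue 1, 2 or 3 or control 3 (adjusted p up to 0.0747) and that of Ankrd34a without active rescue 1 (0.0546).

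The remaining lists held few calls, where 1.09% of all genes tested rose and 0.87% fell. Among GABAergic markers, 14 of 18 of which were measured, Pax2 rose and Gad1, which makes GABA, fell (-0.47 ± 0.11 SE; 111 ± 35.9 CPM in active rescue, 157 ± 63.1 CPM in control, SD, n = 5 each). The Gad1 call was lost without active rescue 1, 2, 3 or 5 or control 1, 2 or 5 (adjusted p up to 0.121). In the matrix and perineuronal list of 20 measured genes Tnr fell and the syndecan gene Sdc3 rose by 0.40 ± 0.09. The BMP and TGF-beta list held 1 fall in 37, the BMP antagonist Chrd (-0.48 ± 0.11). The integrated stress list had 1 fall in 26, Aldh18a1 of proline synthesis (-0.32 ± 0.08), and the cholesterol list 1 fall in 25, Insig1, a regulator of sterol synthesis (-0.29 ± 0.07). Of 45 autism-associated genes 1 fell, Nrxn3, and 0 rose. Sdc3 and Insig1 lost their calls whichever library was left out, Aldh18a1 without any 1 library except those numbered 4, and Chrd without active rescue 1, 2, 4 or 5 or control 4 or 5 (adjusted p up to 0.152 over these 4 genes). Oxidative phosphorylation held 0 calls of 40 (smallest adjusted p in edgeR 0.39) and ribosomal protein genes 0 of 44 (0.865). Markers of astrocytes (17), fibroblasts (19), endothelium (12) and unipolar brush and nuclear neurons (11) held 0 calls in edgeR, with smallest adjusted p-values of 0.172, 0.21, 0.0901 and 0.0503.

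The genes that differed most in shKdm6b over control stood on the same side of 0 in the active rescue. They were chosen by their shKdm6b values, and all these comparisons use the same control libraries, so the values below are a description and carry no test. Hoxd3 had a log2 fold change of 4.82 in active rescue over control, 4.81 in dead rescue and 5.60 in shKdm6b, and Pitx1 had 4.50 in active rescue, 4.18 in dead rescue and 5.35 in shKdm6b. Camk2a had 1.90 in active rescue, 1.78 in dead rescue and 2.25 in shKdm6b. Islr2 had 2.27 in active rescue, 1.34 in dead rescue and 1.72 in shKdm6b. Among the falls, Tnr had -1.92 in active rescue, -1.48 in dead rescue and -2.24 in shKdm6b, and Kcnip2 -1.45 in active rescue, -1.23 in dead rescue and -1.76 in shKdm6b. Zan, which encodes the sperm protein zonadhesin, had -3.92 in active rescue, -4.71 in dead rescue and -4.80 in shKdm6b. These values rest on numbers 1 to 3, with 0.829, 0.149 and 2.62 CPM in active rescue against 20.9, 26.9 and 22.2 CPM in control, while Zan stood at 0 and 0.518 CPM in active rescue 4 and 5 and at 0.177 and 0.409 CPM in control 4 and 5. Without active rescue 1 its adjusted p in edgeR was 0.0721. Zan overlaps Ephb4 on the other strand. Of the falls chosen this way, Ccdc63 (-1.71), Gabrd (-1.25) and Ntng1 (-1.20) did not pass in active rescue over control.

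**Figure D5:**
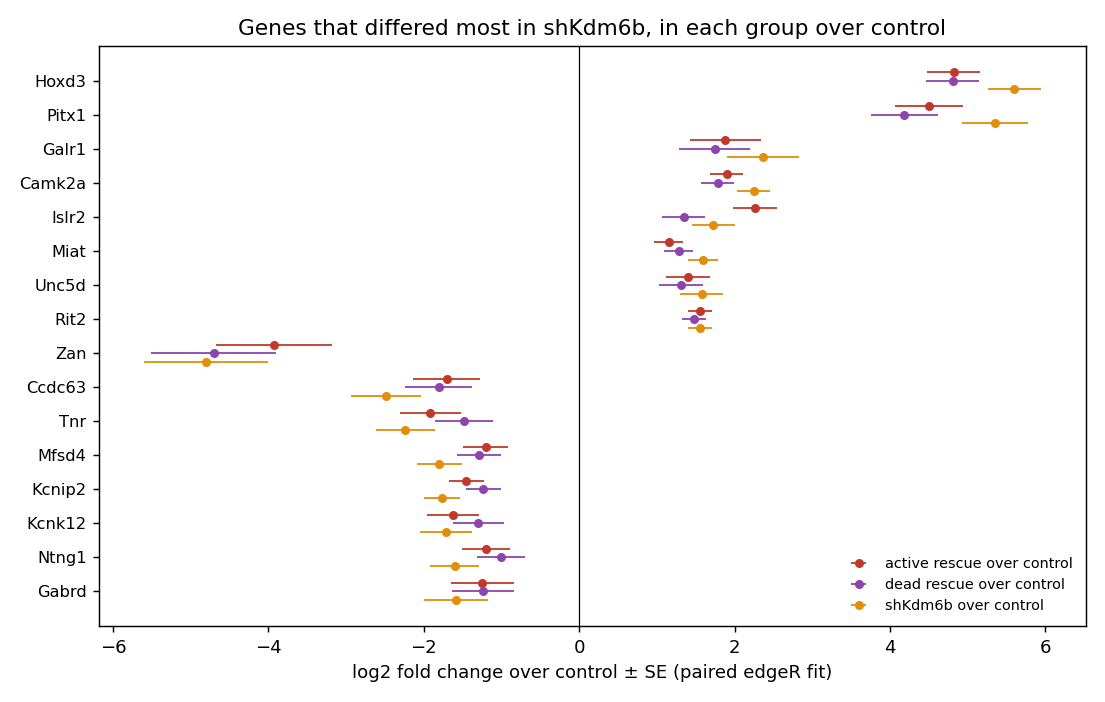
Log2 fold change over control ± SE from the paired edgeR fit (horizontal axis) of the 16 genes with the largest changes in shKdm6b, for active rescue (red), dead rescue (purple) and shKdm6b (orange), which share the control libraries. Every point lies on the same side of 0 as the shKdm6b value by which the genes were chosen, from Hoxd3 at 4.82 to Zan at -3.92 in active rescue.

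The direct contrasts of the active rescue with the other infected groups called a single gene each, out of 15284 (0.00654%), and it was Kcnip1 in both. Its levels were 12.9, 8.42, 4.39, 4.10 and 0.576 CPM in active rescue libraries 1 to 5, 2.52, 2.77, 1.41, 1.46 and 0.398 CPM in dead rescue, and 1.97, 2.07, 1.33, 1.79 and 0.242 CPM in shKdm6b. Active rescue was highest for each number. The log2 fold change was 1.86 ± 0.24 over shKdm6b (SE, edgeR paired adjusted p = 0.0115) and 1.67 ± 0.24 over dead rescue (adjusted p = 0.0411). Kcnip1 is annotated at chr11:33629339-33993152 and overlaps 4930469K13Rik on its own strand and Kcnmb1, Gm12119 and Gm12120 on the other, so its count is uncertain. In shKdm6b over control it had a value of 0.37 (adjusted p = 0.594) and in dead rescue over control 0.55. Kdm6b itself was 1.26 higher in active rescue than in shKdm6b (adjusted p = 0.0865). Tnr, Kcnip2, Kcnk12 and Mfsd4 had values of 0.33, 0.31, 0.08 and 0.60 in active rescue over shKdm6b, and Hoxd3, Pitx1 and Camk2a had -0.78, -0.85 and -0.35. None of these 7 passed in that contrast, with adjusted p-values of 0.734 to 1, which does not show that the groups were alike. For scale, edgeR called 632 genes (4.14%) in shKdm6b over control, 263 higher (1.72%) and 369 lower (2.41%), and 181 (1.18%) in dead rescue over control, 88 higher (0.576%) and 93 lower (0.608%).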

How the data were processed

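RNA was extracted with the RNAqueous Micro Kit and libraries were made at Novogene, per the labels' protocols. The authors deposited 1 table of estimated counts per gene symbol whose name gives salmon; mm10 is named in the submitters' processing notes, and no source used here gives annotation, versions, filters or strandedness. Each column matched 1 sample by name and 0 were left over. Estimated counts, of which 7.03 to 11.2% were not whole, were rounded. Genes were kept with filterByExpr (9127 removed), scaled by TMM, and tested with edgeR 4.0.16 in R 4.3.3 (robust quasi-likelihood, two-sided) on all 20 libraries with the replicate number as a block, with Benjamini-Hochberg adjustment over all genes and a threshold of 0.05. "Lost" calls are those over 0.05 when 1 library was left out.

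The pairing rests on the data: deviations of same-numbered libraries from their group means correlated at 0.361 to 0.751 over the 5 pairs, above the limit of 0.1 in each, and differently numbered ones had a median of -0.171. The block lowered the biological coefficient of variation to 0.179, against 0.392 without it. No pair of replicates matched within sampling noise (lowest chi-square per degree of freedom 29.1).

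On counts simulated for this comparison (15284 genes, 200 changed up or down), the paired fit called 43.3% of genes changed 1.5-fold. It called 89.6% at 2-fold and 93.9% at 4-fold, with 7 false calls among 158. The changed genes were drawn from those above a set average level, so recovery at low counts was not simulated. CPM use TMM-scaled totals. Genes were named by rule: the 15 largest rises and 15 largest falls among called genes averaging 5 CPM or more in the 10 libraries with 5 of 5 pairs alike, leaving out predicted genes; Kdm6b and Kdm6a; up to 4 called members of each of 33 lists; and the 8 largest rises and falls of shKdm6b over control. Further called list members (Wnt7a, Fstl5, Meis1, Adcyap1r1, Lrrtm1, Cacna1i), Ezh2, Cbln3, Etv1, Gabra6, Slc17a7 and the extremes of lists were named after their values were seen. The members and lists were chosen with earlier results of these data known. Gene positions are from GENCODE (GRCm38) and upstream sequences from RefSeq (GRCm38.p6).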

Additional observations from a re-analysis of the deposited data

Results flagged for a closer look

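Of 134 groups of 5 libraries examined for a value far from the rest (11 gene and group pairs met this), chance gives about 1 in 20. Library 4 of the active rescue stood apart for Miat (86.8 CPM, others 24.8 to 38.0), Hkdc1 (1.17 CPM, others 3.22 to 4.06) and Gabrd (3.32 CPM, others 41.4 to 52.7). Library 5 of the active rescue stood apart for Camk2a (8.98 CPM, others 14.7 to 16.2), Mfsd4 (30.7 CPM, others 3.91 to 7.17) and Chrd (19.3 CPM, others 7.23 to 10.5). Control 4 was high for Nnat (183 CPM, others 19.0 to 59.7), Pitx1 (1.42 CPM, others 0 to 0.177) and Nts (0.413 CPM, others 0 to 0.117). Control 3 was low for Ramp3 (13.5 CPM, others 22.4 to 26) and control 5 high for Nr4a1 (22.5 CPM, others 7.59 to 11.7).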

How the results depend on the processing

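The paired count of 299 genes (166 higher, 133 lower) rests on the replicate block and on all 20 libraries. It was 0 without the replicate block (0 higher, 0 lower). On the 10 libraries it was 2 with the block (2 higher, 0 lower) and 0 without it. With libraries numbered 4 and 5 alone it was 0, where 1181 of 15258 genes were under an unadjusted p of 0.05 in edgeR. About 1 in 20 genes would be under that level where nothing differs. DESeq2 called 623 (320 higher, 303 lower) with the block, 29 (21 higher, 8 lower) without it and 286 on the 10 libraries with the block, the last 2 settings chosen after seeing the data. Leaving out the libraries numbered 4 gave 700 (311 higher, 389 lower), and numbers 1 to 3 alone gave 454 (220 higher, 234 lower). With RLE size factors in place of TMM 291 were called, 143 higher (49.1%, against 55.5%) and 148 lower. Leaving out 1 library gave 128 to 384 calls, 78 to 190 higher and 50 to 194 lower. The count moved most without active rescue 1 (128), control 1 (149), active rescue 2 (175) or control 2 (190). No filter and a minimum of 5 CPM gave 240 and 255 calls. The cause of these moves was not tested. Of the 299 genes, all that were tested kept their sign in each of these fits. The fits share libraries with the one that chose these genes, so this is no independent support.

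Kdm6b reversed with numbers 4 and 5 alone (-0.43). Its mean log2 difference ran from 0.217 to 0.741 when 1 library was left out. Kdm6a, at 0.11, reversed to -0.054 without the block, -0.0714 on 10 libraries without it, -0.0713 in DESeq2 without it, -0.26 without numbers 4, -0.32 with numbers 1 to 3 alone, -0.15 without active rescue 4 and -0.12 without control 4, with 0.239 the highest value when 1 library was left out. Changes of 1.5-fold, up or down, were recovered in 43.3% of simulated cases, so smaller changes can be missed at this depth. Fits that leave 1 group with fewer libraries assume that it varies like the other groups.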
